A study of Mus musculus with 9 samples.

Results

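The DNA replication and S-phase genes described here are 42 genes chosen by name: the enzymes and loading factors that copy the genome, the enzymes that supply its nucleotides, the factors that repackage new DNA, and the switch that starts S phase. All 42 were among the 18303 genes of the count table, and all 42 had enough counts to be tested. RNA was sequenced from CD45+CD11b+F4/80+ cells, a macrophage sort, taken from wounded skin. The mice were C57BL/6J wild-type, with 4 libraries from day 4 after injury and 5 from day 14. The comparison was between the early and the late wound, and neither group carried another allele or received a treatment. The labels do not say how many animals gave each library or whether libraries of one day came from separate animals, so p-values measure the spread between these libraries, which may be technical. RNA of the markers used in the sort was present, which does not measure how pure the cells were. Ptprc (CD45) was at 1167 ± 97.4 CPM (counts per 1000000 counts of the library, ± SD, n = 4) at day 4 and 1525 ± 82.7 (n = 5) at day 14. Itgam (CD11b) was at 1753 ± 177 and 1291 ± 78.3, and Adgre1 (F4/80) at 1120 ± 59.1 and 1455 ± 120. The fibroblast marker Col3a1 was at 6374 ± 1945 and 3252 ± 667.

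Library totals ran from 17982633 to 57809918 counts, and from 14673 to 16373 genes had a count in a library. In day 14 replicate 5 the counts stop at Aplp2 on chromosome 9: of 810 well-counted genes beyond that point or on X and Y, 807 were at 0 there. None of the 42 genes lies in that region, so their values come from all 9 libraries, and genes of other lists that lie there are given from the 8 other libraries. 2 libraries of day 4 and 1 of day 14 were deeper, with at least 50162708 counts, and the 6 others shallower, with at most 27381291.

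Before S phase, the origin recognition complex, Cdc6 and Cdt1 load rings of the Mcm2 to Mcm7 proteins onto DNA. At the start of S phase, Cdc45, the GINS complex and Mcm10 turn the loaded ring into a running helicase. DNA polymerase alpha with primase starts each strand, the clamp loader places the PCNA ring, polymerases delta and epsilon extend, and Fen1 and Lig1 finish the Okazaki fragments. E2F1 and the E cyclins switch on many of these genes in late G1. Mature macrophages mostly rest outside the cell cycle, and some tissue macrophages divide where they reside. In RNA from a bulk of sorted cells, more dividing cells and more RNA of a gene per cell cannot be told apart.

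E2F factors bind promoters of many replication genes, and mitosis genes often carry another element, the cell cycle homology region (CHR). Promoters from 250 bases before to 50 after the start were therefore searched on both strands, in RefSeq sequences of GRCm38.p6. The E2F letters were TTTGGCGC, TTTCCCGC, TTTGCCGC and TTTCGCGC, the CHR letters TTTGAA and TTCGAA, and the third motif CCAAT. None of these motifs contains another, but E2F matches on opposite strands can overlap. A promoter was listed for 35 of the 42 genes (not for Mcm4, Gins1, Gins2, Pole, Prim2, Rfc2 and Ccne2). E2F letters were present in 11 of these 35 genes (31.4%), namely Mcm3, Mcm5, Mcm6, Mcm7, Orc1, Cdc6, Cdt1, Rfc3, Pold1, Lig1 and Uhrf1. Among 32 mitosis genes they were present in 2 (6.25%), and among all 27025 genes with a promoter in 704 (2.6%). CHR letters were present in 5 of the 35 replication genes (14.3%), in 24 of the 32 mitosis genes (75%) and in 21.7% of all genes. CCAAT was present in 20 of the 35 (57.1%), in 24 of the 32 (75%) and in 41.1% of all genes. A match is a description of the letters and not of a bound site. Of the replication genes that rose, 5 of the 11 with a listed promoter held E2F letters, and of those that did not pass the test, 5 of 23. In the 150 bases before the start alone, the order was the reverse, 1 of 11 against 4 of 23.

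2 of these promoters show the letters most fully, since each holds a pair of E2F matches on opposite strands that share bases, so that 12 letters carry both. They are the 200 bases before the RefSeq start, 5′ to 3′ on the gene's strand, with the E2F matches in capitals. Mcm5 lies on the plus strand (GRCm38.p6, chr8:75109309-75109508), with matches 153 and 149 bases before the start. Mcm6 lies on the minus strand (chr1:128359706-128359905), with matches 110, 106 and 47 bases before the start.
Mcm5: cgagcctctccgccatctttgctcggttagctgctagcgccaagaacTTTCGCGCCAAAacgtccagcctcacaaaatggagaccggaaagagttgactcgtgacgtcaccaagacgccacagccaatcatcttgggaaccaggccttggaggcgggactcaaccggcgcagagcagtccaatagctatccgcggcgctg
Mcm6: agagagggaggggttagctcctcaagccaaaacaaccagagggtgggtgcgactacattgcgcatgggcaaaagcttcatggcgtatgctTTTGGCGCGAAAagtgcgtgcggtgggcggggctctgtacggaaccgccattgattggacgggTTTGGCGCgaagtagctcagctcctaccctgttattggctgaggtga
The 2 genes differed in their values. Mcm5 rose 1.59-fold, and Mcm6, with the larger number of matches, did not pass the test at 1.11-fold.

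At day 14, 13 of the 42 genes were higher than at day 4 and 1, Cdt1, was lower, at an adjusted p under 0.05 in edgeR's quasi-likelihood test; 28 did not pass. Over all 13344 genes tested, 31.0% were called in either direction, 16.1% higher and 14.9% lower. The 13 that rose were Mcm3, Mcm4, Mcm5, Mcm7, Mcm10, Prim1, Pole, Rfc4, Rpa2, Lig1, Rrm2, Chaf1b and Uhrf1, by 1.21- to 2.16-fold. The estimate was above 0 in 33 of the 42, and the median log2 fold change was 0.28 (1.22-fold), beside 0.01 over all genes tested, whose middle 50% lay between -0.25 and 0.28. Day 14 values lay wholly above day 4 values in 13 genes, beside 13% of all genes, and wholly below in 1, beside 12.7%. Those 13 are not the called 13: Tyms was separate between days but did not pass the test, and Rrm2 passed with overlapping days. Without adjustment, 17 genes were higher and 2 lower at p under 0.05 in edgeR's test. The share of all genes at that threshold was not counted, so the shares above do not apply to it. The count of 13 fell to 8 without the third day 4 library, a setting in which 11.9% of all genes were called higher. In the 6 shallower libraries it was 6, beside 7.60% of all genes, and in the 3 deeper libraries it was 9, beside 19.8%; the single deep day 14 library is there assumed to vary like the others.

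**Figure D1:**
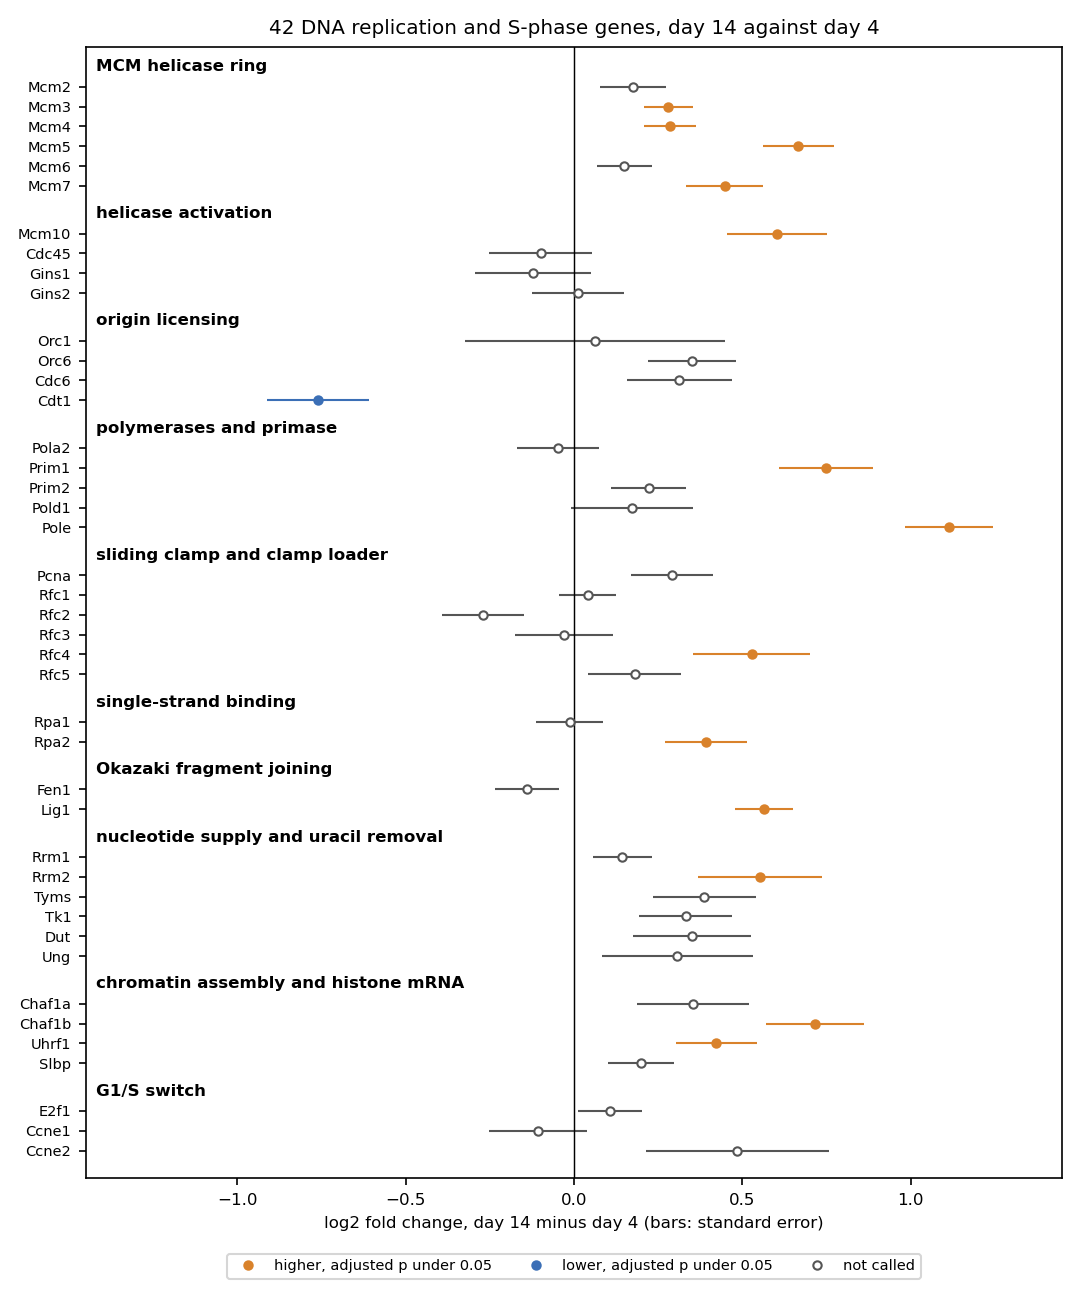
Log2 fold change from day 4 (n = 4) to day 14 (n = 5) of the 42 genes, grouped by role, with bars for the standard error; orange points were higher, blue lower and open points not called at an adjusted p under 0.05. Pole lies furthest to the right at 1.11, Cdt1 is the blue point at -0.76, and 33 of the 42 points lie right of 0.

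Of the 6 subunits of the MCM ring, the core of the replicative helicase, 4 rose and 2 did not pass the test. Mcm5 (chr8:75109569-75128439; this and the other gene positions are GENCODE M21 on GRCm38) stood at 19.0, 19.0, 21.6 and 25 CPM in the 4 day 4 libraries and at 32.6, 33.7, 34.8, 29.9 and 37.5 CPM in the 5 of day 14. The highest day 4 library stayed below every day 14 library, and the log2 fold change was 0.67 ± 0.11 (adjusted p = 0.000564; here and in what follows, log2 fold changes are ± SE and levels ± SD). Mcm7 (chr5:138164583-138172422) was at 7.74, 6.52, 6.40 and 6.04 CPM at day 4 and at 8.86, 9.19, 8.50, 9.35 and 9.51 CPM at day 14, again without overlap. It rose by 0.45 ± 0.11 on the log2 scale (adjusted p = 0.0113), and 13% of its exonic bases are shared with Cops6 and Ap4m1. Mcm3 (chr1:20802968-20820312) was at 41.4, 37.7, 39.0 and 41.5 CPM at day 4 and 48.6, 45.8, 46.5, 49.6 and 51.8 CPM at day 14 (log2 0.28 ± 0.07, adjusted p = 0.0122). Mcm4 (chr16:15623897-15637400) was at 32.9, 34.0, 31.8 and 32.7 CPM against 38.4, 42.9, 36.9, 43.2 and 39.1 CPM (0.29 ± 0.08, adjusted p = 0.0152). Both were small changes with tight replicates, each day's libraries lying apart from the other's. Mcm2 (19.5 ± 2.20 and 22.1 ± 1.57 CPM, adjusted p = 0.193) and Mcm6 (50.2 ± 2.57 and 55.7 ± 4.82 CPM, adjusted p = 0.183) had overlapping days. The sum of the 6 subunits was 170 ± 6.73 CPM at day 4 and 209 ± 8.84 CPM at day 14. Without the third day 4 library, Mcm3 (adjusted p = 0.0501) and Mcm4 (adjusted p = 0.0586) no longer passed.

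Among the 4 genes that activate the ring, Mcm10 rose and Cdc45, Gins1 and Gins2 did not pass the test. Mcm10 (chr2:4989714-5012791), a binding partner of the ring needed for origin firing, was at 5.06, 3.81, 4.09 and 3.51 CPM at day 4 and at 7.18, 6.07, 5.74, 6.04 and 5.98 CPM at day 14. Its days did not overlap, with a log2 fold change of 0.60 ± 0.15 (adjusted p = 0.00923). Cdc45, which joins the ring with GINS, was at 5.52 ± 1.18 and 5.14 ± 0.257 CPM, where the second day 4 library (7.23 CPM) was above all others. Gins1, a subunit of the GINS complex, was at 3.74 ± 0.224 and 3.44 ± 0.650 CPM, and Gins2, another subunit, at 6.23 ± 0.713 and 6.32 ± 0.724 CPM. Approximate 95% intervals of the ratio of day 14 to day 4 ran from 0.757 to 1.15 for Cdc45, 0.727 to 1.16 for Gins1 and 0.837 to 1.21 for Gins2. Of the exonic bases of Gins2 in GENCODE M21 (chr8:120578633-120589304), 70.7% are shared with Gse1. The RefSeq gene is shorter (chr8:120581266-120589075), and the labels do not name the annotation used for the counts.

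Of the 4 licensing genes, Cdt1 fell and Orc1, Orc6 and Cdc6 did not pass the test. Cdt1 (chr8:122568015-122573554), which brings the MCM ring to origins and is destroyed in S phase, was at 39.0, 44.6, 30.4 and 42.5 CPM at day 4 and at 20.8, 17.3, 27.8, 22.3 and 27.5 CPM at day 14. Every day 14 library lay below every day 4 library, although replicate 3 of day 4 (30.4 CPM) and replicate 3 of day 14 (27.8 CPM) came close. The log2 fold change was -0.76 ± 0.15 (adjusted p = 0.00260), a 1.69-fold lower level. Orc6, a subunit of the origin recognition complex, was at 11.6, 12.7, 9.67 and 9.80 CPM against 13, 12.9, 12.3, 17.5 and 14.1 CPM, with an adjusted p of 0.0607; it passed by DESeq2 (adjusted p = 0.0466), by limma-voom (0.0431) and in 3 other settings. Cdc6, which works with Cdt1 in loading, was at 3.96 ± 0.520 and 4.89 ± 0.634 CPM (adjusted p = 0.148). Orc1, the largest subunit of the complex, was the least counted of the 42, with 20 to 82 counts in a library, and varied most between libraries: 1.43, 2.79, 0.771 and 1.47 CPM at day 4 and 0.925, 2.01, 2.23, 2.14 and 1.09 CPM at day 14. Its ratio had an approximate 95% interval from 0.618 to 1.76.

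Of the 5 polymerase and primase genes, Pole and Prim1 rose. Pole (chr5:110286306-110337474), the catalytic subunit of the leading strand polymerase epsilon, was at 4.41, 5.62, 4.77 and 3.86 CPM at day 4 and at 10.9, 9.87, 9.53, 9.78 and 10.2 CPM at day 14. The lowest day 14 library was well above the highest of day 4, and the 2.16-fold difference (log2 1.11 ± 0.13, adjusted p = 7.44e-05) was the largest of the 42 genes. Prim1 (chr10:128015168-128030037), the catalytic subunit of primase, was at 4.67, 6.17, 5.98 and 5.36 CPM at day 4 and at 9.12, 10.3, 7.39, 9.56 and 10.4 CPM at day 14. It rose 1.68-fold without overlap (log2 0.75 ± 0.14, adjusted p = 0.00172). Its partner in the primase, Prim2, was at 12.1 ± 0.847 and 14.0 ± 1.74 CPM (adjusted p = 0.145). Pola2, the second subunit of polymerase alpha, was at 13.3 ± 2.35 and 12.9 ± 0.610 CPM (adjusted p = 0.792). Pold1, the catalytic subunit of polymerase delta, was at 10.5 ± 2.24 and 12.0 ± 2.79 CPM (adjusted p = 0.499). Within the shallower and the deeper libraries, the log2 fold change of Pole was 0.96 and 1.32 and that of Prim1 was 0.78 and 0.66.

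**Figure D2:**
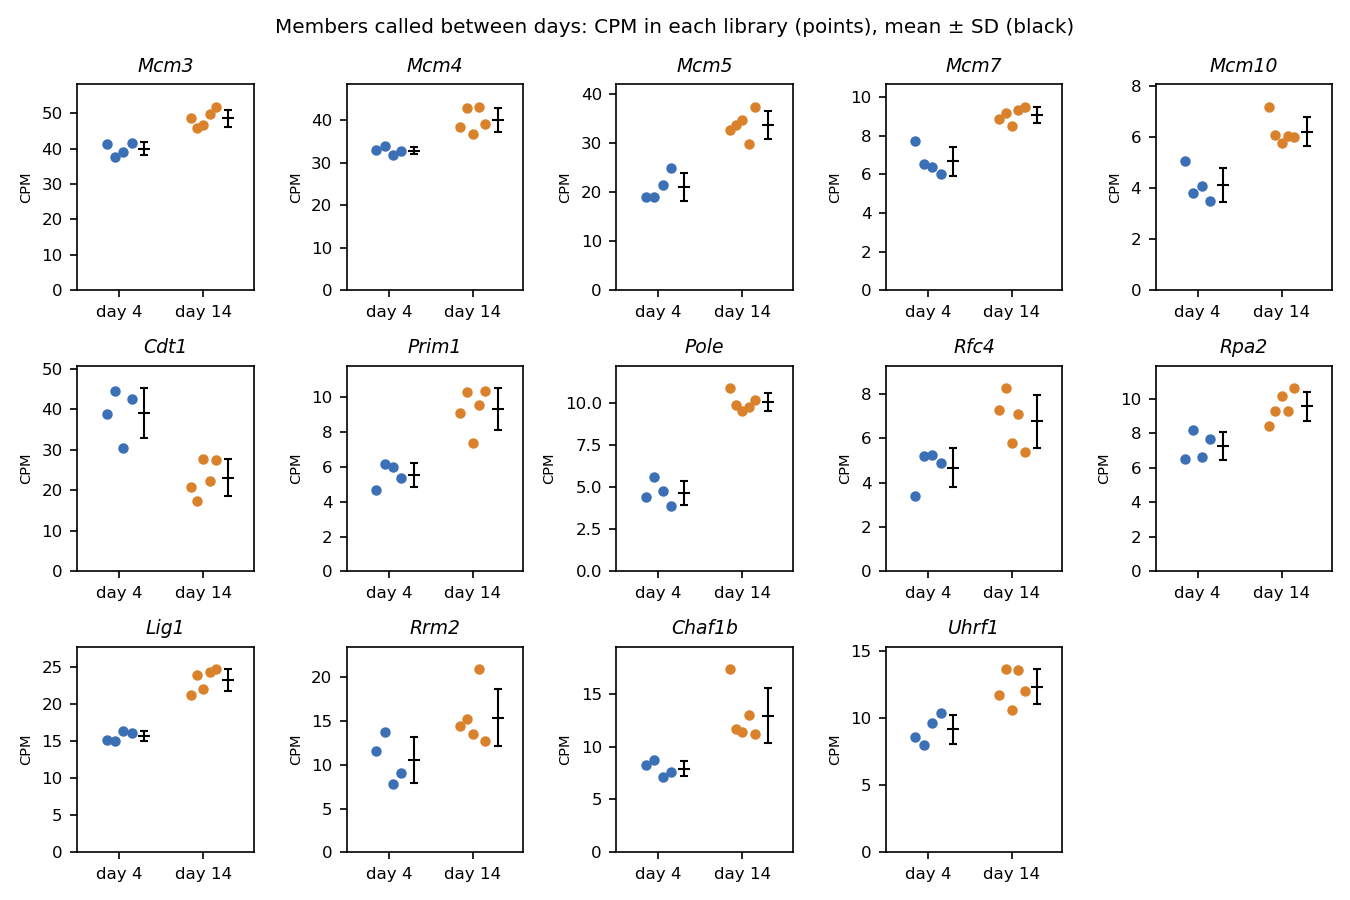
CPM of the 14 genes called between days, with 1 point per library (blue, day 4, n = 4; orange, day 14, n = 5) and black bars for the mean ± SD. The days lie apart in 13 of the 14, with Cdt1 lower at day 14, and the days overlap in Rrm2.

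Of the 6 genes of the sliding clamp and its loader, 1 rose and 5 did not pass the test. Pcna, the ring that holds polymerases on DNA, was at 116, 113, 90.2 and 94.8 CPM at day 4 and at 141, 134, 110, 145 and 103 CPM at day 14. Day 14 replicates 3 and 5 fell within the day 4 range, and the gene did not pass the test (log2 0.29 ± 0.12, adjusted p = 0.0864). Pcna and Tyms each have annotated pseudogenes, with which reads could be shared. Rfc4 was the 1 loader gene called, at 3.42, 5.22, 5.23 and 4.87 CPM against 7.29, 8.29, 5.79, 7.11 and 5.38 CPM. Its log2 fold change was 0.53 ± 0.17 (adjusted p = 0.0375), the lowest day 14 library (5.38 CPM) was just above the highest of day 4 (5.23 CPM), and the call was lost in 10 of 21 other settings. Of its exonic bases, 13.4% are shared with Eif4a2. The 4 other loader subunits did not pass: Rfc1 was at 49.9 ± 5.23 and 51.3 ± 2.73 CPM, Rfc2 at 27.1 ± 2.56 and 22.5 ± 3.52, Rfc3 at 7.99 ± 0.853 and 7.81 ± 1.37, and Rfc5 at 6.33 ± 0.404 and 7.19 ± 1.07. In the 3 deeper libraries alone, of which 1 is of day 14, the log2 fold change was 0.58 for Pcna and -0.51 for Rfc2. Pcna passed edgeR's test as higher with upper-quartile scaling (adjusted p = 0.0484), without day 14 replicate 3 (0.0459) and without day 14 replicate 5 (0.0416). In 17 of 21 other settings it stayed uncalled.

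The single-strand binding protein RPA and the joining of Okazaki fragments each had 1 called gene of 2. Rpa2, the middle subunit of RPA, was at 6.53, 8.21, 6.65 and 7.69 CPM at day 4 and at 8.44, 9.27, 10.1, 9.30 and 10.6 CPM at day 14 (log2 0.39 ± 0.12, adjusted p = 0.0281), a call lost in 8 of 21 other settings. Rpa1, the large subunit, was at 34.5 ± 2.53 and 34.2 ± 3.92 CPM, with an approximate 95% interval of the ratio from 0.866 to 1.13. Lig1 (chr7:13277283-13311433), the ligase that seals Okazaki fragments, was at 15.1, 15, 16.4 and 16.1 CPM at day 4 and at 21.1, 23.9, 22.0, 24.3 and 24.7 CPM at day 14. The gap between the days was wider than the spread within either (log2 0.56 ± 0.09, adjusted p = 0.000457). Fen1, the flap nuclease that acts before it, was at 17.9 ± 1.48 and 16.3 ± 1.25 CPM (adjusted p = 0.286). Of the exonic bases of Fen1, 84.1% are shared with Gm10143 and Tmem258, and with a library kit that does not mark the strand, reads of overlapping genes cannot be told apart. In 10 of the 42 genes, Fen1 included, more than 10% of the exonic bases are shared; besides Fen1, Gins2, Chaf1a, Rfc4 and Mcm7 these are Rfc2 (19.1%, with Lat2), Rfc5 (15.4%, Wsb2), Slbp (14.4%, Gm10459), Orc1 (11.9%, Gm12743) and Ccne2 (10.5%, Ints8).

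Of the 6 genes of nucleotide supply and uracil removal, all had estimates above 0 and 1 passed the test. Rrm2, the regulated subunit of ribonucleotide reductase, was at 11.5, 13.8, 7.82 and 9.02 CPM at day 4 and at 14.5, 15.3, 13.5, 21.0 and 12.8 CPM at day 14. Day 4 replicate 2 was above replicates 3 and 5 of day 14, and the log2 fold change of 0.55 ± 0.18 (adjusted p = 0.0391) lost its call in 9 of 21 other settings. Rrm1, the large subunit of the same enzyme, was at 50.5 ± 4.61 and 55.8 ± 4.37 CPM (adjusted p = 0.230). Tyms, which makes thymidylate, was at 4.28, 4.87, 3.25 and 4.49 CPM and 5.53, 5.21, 5.61, 6.20 and 5.0 CPM, separate between days but at an adjusted p of 0.0721. Thymidine kinase Tk1 was at 6.08 ± 0.858 and 7.66 ± 0.845 CPM (adjusted p = 0.0857). Dut, the enzyme that removes dUTP, was at 5.30 ± 1.09 and 6.76 ± 1.21 CPM (adjusted p = 0.149), and Ung, the glycosylase that cuts uracil out of DNA, at 1.93 ± 0.318 and 2.41 ± 0.596 CPM (adjusted p = 0.314). The second day 4 library was the highest of its day in 18 of the 42 genes, a count not made over all genes. Without that library, Tyms (adjusted p = 0.0468), Tk1 (0.0357) and Dut (0.0452) passed edgeR's test. In that setting, 18 of the 42 genes were called higher, beside 16.7% of all genes. The same library stood apart in the fibroblast markers, whose sum was 20571 CPM there and 10270 to 13499 CPM in the 3 other day 4 libraries; their part in these values was not tested.

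Among the 4 genes of chromatin assembly and histone mRNA, Chaf1b and Uhrf1 rose. Chaf1b (chr16:93883901-93906115), a subunit of the CAF-1 complex that lays histones on new DNA, was at 8.22, 8.72, 7.13 and 7.57 CPM at day 4 and at 17.4, 11.6, 11.4, 12.9 and 11.2 CPM at day 14. The first day 14 library stood above the rest, and all 5 were above day 4 (log2 0.72 ± 0.15, adjusted p = 0.00311). In the 6 shallower libraries, which leave out that library and the 2 deeper libraries of day 4, Chaf1b did not pass edgeR's test (log2 0.46 ± 0.15, adjusted p = 0.0692). With only day 14 replicate 1 left out, Chaf1b still passed. Uhrf1 (chr17:56303321-56323486), which guides maintenance methylation at the fork, was at 8.6, 8.01, 9.67 and 10.4 CPM against 11.7, 13.7, 10.6, 13.6 and 12.1 CPM (0.42 ± 0.12, adjusted p = 0.0191). Chaf1a, the large subunit of CAF-1, was at 8.77 ± 1.88 and 11.3 ± 1.95 CPM (adjusted p = 0.123), with 33.6% of its exonic bases shared with Ubxn6. Slbp, which binds the stem loop of histone mRNAs, was at 57.1 ± 7.4 and 65.4 ± 5.12 CPM (adjusted p = 0.143).

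The 3 genes of the G1/S switch did not pass the test: 0 were called by edgeR, DESeq2 or limma-voom, and 0 had an unadjusted p under 0.05. E2f1, the transcription factor of this switch, was at 27.5, 21.5, 28.0 and 27.8 CPM at day 4 and at 27.4, 29.6, 29.9, 27.1 and 27.3 CPM at day 14. The second day 4 library was low and the 8 others lay close together, so that the days overlap (ratio 1.08, approximate 95% interval 0.947 to 1.23). Cyclin E1, from Ccne1, was at 5.54 ± 0.863 and 5.12 ± 0.494 CPM. Cyclin E2, from Ccne2, was at 2.59, 5.18, 3.13 and 2.39 CPM at day 4 and at 5.04, 5.47, 2.72, 5.93 and 3.91 CPM at day 14 (log2 0.49 ± 0.27, adjusted p = 0.193), with wide overlap. Without the second day 4 library, Ccne2 passed edgeR's test as higher (log2 0.77 ± 0.25, adjusted p = 0.0347).

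Summed over the 42 genes, the level was 773, 786, 730 and 762 CPM in the day 4 libraries and 859, 881, 845, 919 and 850 CPM in those of day 14. The day 14 sums all lay above the day 4 sums, by 1.14-fold on the means, and are given without a test. The sum of 34 mitosis genes that all 9 libraries cover was 595, 721, 580 and 624 CPM at day 4 and 1078, 1070, 829, 1124 and 979 CPM at day 14, 1.61-fold on the means. The third day 14 library was the lowest of its day in both sums. It was also the lowest of its day in 13 of the 42 genes and the highest in 8, while the fourth was the highest in 13. The same counts were not made over all genes. The coefficient of variation between libraries had a median over the 42 genes of 12.3% at day 4 and 11.2% at day 14.

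**Figure D3:**
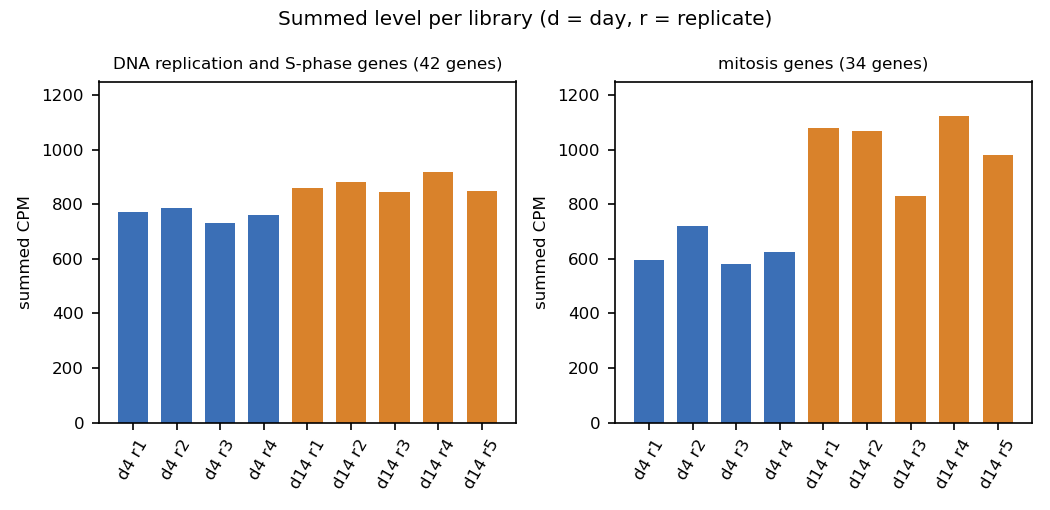
Summed CPM per library (bars from 0; blue, day 4; orange, day 14) of the 42 replication genes, left, and of 34 mitosis genes, right. Replication sums lie between 730 and 786 at day 4 and between 845 and 919 at day 14; mitosis sums lie between 580 and 721 and between 829 and 1124.

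Levels of different genes were compared per kilobase of exon. Pcna was the most abundant of the 42 at both days, at 68.2 ± 8.47 and 83.4 ± 12.5 CPM per kilobase. Slbp followed at 21.6 ± 2.80 and 24.7 ± 1.94, and Cdt1 was at 17.9 ± 2.85 at day 4, where 2 of its libraries lay above the lowest of Slbp, and at 10.6 ± 2.06 at day 14. The rank of Cdt1 moved from 3 to 8. Within the MCM ring, whose subunits are needed in equal number, the order was the same at both days: Mcm3 (13.2 ± 0.611 and 16.0 ± 0.80 CPM per kilobase), Mcm6 (11.5 ± 0.588 and 12.7 ± 1.10), Mcm4 (9.16 ± 0.249 and 11.2 ± 0.784), Mcm5 (6.12 ± 0.820 and 9.75 ± 0.808), Mcm2 (5.78 ± 0.653 and 6.55 ± 0.465) and Mcm7 (2.25 ± 0.249 and 3.07 ± 0.136). Mcm5 and Mcm2 differed by less than their spread at day 4 and by more at day 14. Pole, which rose most, was among the least abundant per length, at 0.629 ± 0.0990 and 1.35 ± 0.0725, and Orc1 was the lowest at 0.536 ± 0.280 and 0.556 ± 0.206. The length is that of all annotated exons of a gene, so a gene with long unused exons is placed too low.

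**Figure D4:**
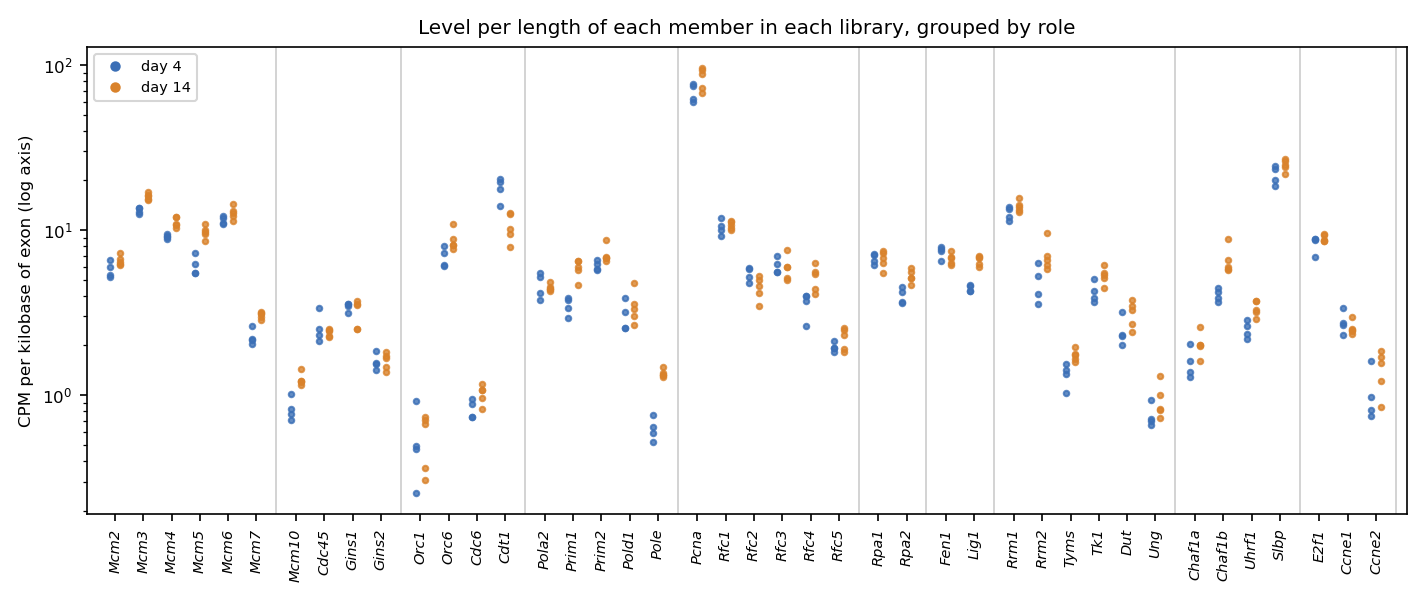
CPM per kilobase of exon (log axis) of the 42 genes in each library (blue, day 4; orange, day 14), with grey lines between roles. Pcna is the highest gene at both days and Orc1 the lowest, and the Cdt1 points of day 14 lie below those of day 4.

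Other genes of the same pathway were counted from lists made for each step. Of 34 other fork and origin genes, 10 rose and 2 fell, beside 16.1% and 14.9% of all genes, with a median log2 fold change of 0.15. Pola1, the catalytic subunit of polymerase alpha, is on X and comes from 8 libraries. It went from 18.4 ± 0.846 to 39.8 ± 5.25 CPM (n = 4 and 4), 2.16-fold. Dna2, a nuclease of Okazaki fragment processing, went from 17.9 ± 2.62 to 29.5 ± 3.98 CPM (1.64-fold, adjusted p = 0.00119). Atad5, which unloads PCNA, went from 8.07 ± 0.632 to 13.2 ± 1.09 CPM (1.64-fold, adjusted p = 0.000416). The 2 that fell were Pold4, the small subunit of polymerase delta (log2 -0.47 ± 0.13, adjusted p = 0.0149), and Chtf8, part of an alternative clamp loader (-0.26 ± 0.09, adjusted p = 0.0464, a call lost in 11 of 21 other settings). Mcmbp, which binds MCM proteins and was the most counted of this list, was at 86.8 ± 6.21 and 83.5 ± 5.52 CPM (adjusted p = 0.612).

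Of 20 other genes of nucleotide supply, 3 (15%) rose and 6 (30%) fell, beside 16.1% and 14.9% of all genes. The median was -0.02. The 3 that rose were Tk2, the mitochondrial thymidine kinase (1.43-fold, adjusted p = 0.00312), Rrm2b, the reductase subunit used outside S phase (1.32-fold, adjusted p = 0.0207), and Paics, of purine synthesis (1.24-fold, adjusted p = 0.0253, a call lost in 7 of 21 other settings). Impdh1, of guanine nucleotide synthesis, fell from 72.2 ± 9.81 to 39.7 ± 3.21 CPM (log2 -0.86 ± 0.10, adjusted p = 6.86e-05). Umps, the last enzyme of UMP synthesis, fell from 28.5 ± 3.75 to 19.8 ± 1.07 CPM (-0.52 ± 0.10, adjusted p = 0.00193). Dctd, which deaminates dCMP, fell from 1.44 ± 0.356 to 0.374 ± 0.166 CPM, both low levels. Samhd1, which breaks down deoxynucleotides and keeps their pool small in resting macrophages, was by far the most counted, at 641 ± 42 and 658 ± 47.7 CPM (adjusted p = 0.781).

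Of 23 checkpoint and fork repair genes, 9 rose and 0 fell by edgeR, beside 16.1% and 14.9% of all genes. By DESeq2 or limma-voom, too, 9 rose and 0 fell, and 0 were lower at an unadjusted p under 0.05. The median was 0.36. Fanci, of the Fanconi pathway, went from 1.81 ± 0.248 to 4.09 ± 0.605 CPM (2.27-fold, adjusted p = 0.000496). Brca2, of fork protection and repair, rose 1.68-fold (adjusted p = 0.00137). Atr, the checkpoint kinase, comes from 8 libraries and was at 28.7 ± 1.89 and 33.9 ± 5.99 CPM (adjusted p = 0.176). Of the 14 other chromatin genes, 5 rose (Ezh2, 1.62-fold; Hells, 1.62-fold; Lsm11, 1.55-fold; Asf1b, 1.34-fold; Atad2, 1.34-fold) and 1 fell. The calls of Asf1b and Atad2 were each lost in 8 of 21 other settings. The 1 that fell was Dnmt1, the maintenance methyltransferase that Uhrf1 recruits, from 90.2 ± 8.77 to 68.1 ± 1.27 CPM (log2 -0.41 ± 0.08, adjusted p = 0.00200). Rbbp4, a histone chaperone and the most counted of that list, was at 135 ± 6.04 and 147 ± 12.3 CPM (adjusted p = 0.273).

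Of 29 other G1/S regulators tested, 11 rose and 3 fell, beside 16.1% and 14.9% of all genes, with a median of 0.23. Ccnd1, a D-type cyclin, went from 29.8 ± 3.51 to 73.0 ± 3.86 CPM (2.44-fold, adjusted p = 1.62e-06). Cdkn2c, an inhibitor of Cdk4 and Cdk6, rose 2.14-fold (adjusted p = 0.000638), and Tfdp2, a partner of E2F factors, 2.02-fold in 8 libraries (adjusted p = 0.000194). The 3 that fell were Cdkn1a (p21), the most counted of the list, from 661 ± 101 to 469 ± 74.4 CPM (log2 -0.50 ± 0.13, adjusted p = 0.0128), Cdk4 (-0.27 ± 0.08, adjusted p = 0.0219) and Cdk6 (-0.38 ± 0.12, adjusted p = 0.0303). The calls of Cdk4 and Cdk6 were lost in 5 and 8 of 21 other settings.

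The genes of mitosis, which acts on the DNA once it is copied, are given beside the replication genes. Of 38 mitosis genes, 23 rose and 1 fell, beside 16.1% and 14.9% of all genes. Their median log2 fold change was 0.53 (1.44-fold) where the 42 replication genes had 0.28. The difference between the lists was not tested. Mki67, the proliferation marker Ki-67, went from 106 ± 12.3 to 255 ± 35.3 CPM (2.40-fold, log2 SE 0.12, adjusted p = 1.76e-05), and Top2a, which untangles copied DNA, from 49.6 ± 7.97 to 99.4 ± 14.2 CPM (2.01-fold, adjusted p = 0.000142). Kif23, a motor of cell division, rose 2.34-fold in 8 libraries (adjusted p = 2.48e-05). The 1 that fell was Aurka, a kinase of the spindle poles (log2 -0.47 ± 0.16, adjusted p = 0.0438), a call lost in 14 of 21 other settings.

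**Figure D5:**
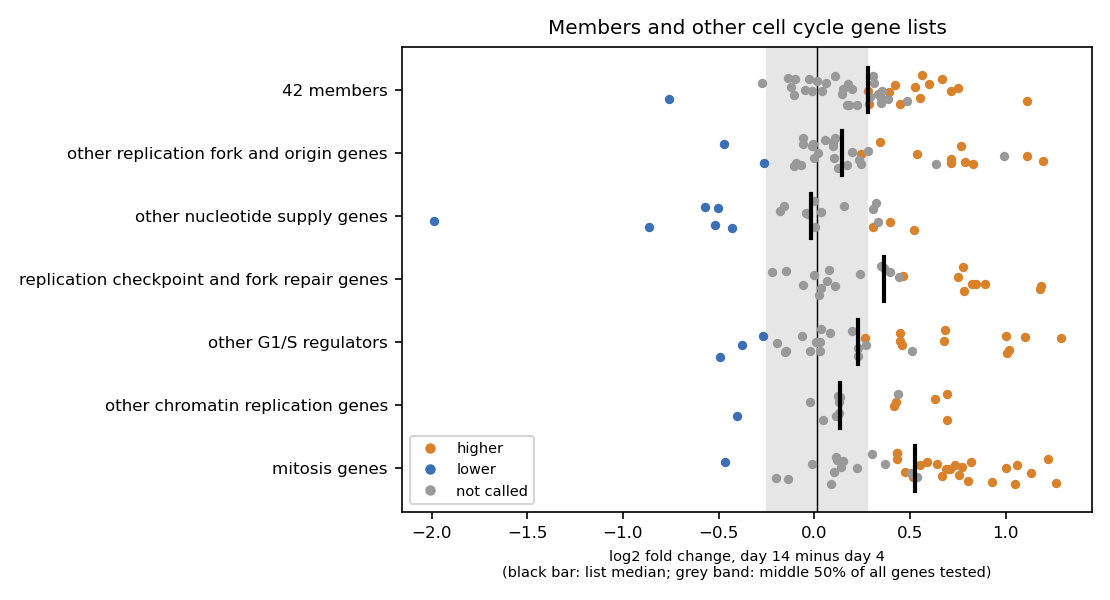
Log2 fold change from day 4 to day 14 of each tested gene (1 point per gene; orange, higher; blue, lower; grey, not called) in the 42 replication genes and 6 further lists, with a black bar for each list's median and a grey band for the middle 50% of all genes tested. The median is 0.28 for the replication genes and 0.53 for the mitosis genes, and the list of other nucleotide supply genes has the most blue points.

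Markers of other cells that the sort could hold also differed between the days, where 16.1% of all genes rose and 14.9% fell. The 12 fibroblast markers summed to 10270 to 20571 CPM at day 4, the highest being replicate 2, and 5709 to 8306 CPM at day 14, and 7 fell. The 11 dendritic cell markers summed to 179 to 262 and 349 to 416 CPM, and 7 rose. Neutrophil markers, of which 1 of 6 tested fell, summed to 1022 to 2411 and 298 to 1897 CPM, and recruited monocyte markers, of which 2 rose and 4 fell of 7, to 3734 to 4291 and 4352 to 5197 CPM. Of the 10 macrophage and sort markers, 3 rose and 4 fell, within sums of 21806 to 25372 and 24520 to 27258 CPM. Rarer markers were at low sums: keratinocytes 1.6 to 6.64 and 10.9 to 17.5 CPM (5 of 6 tested rose), endothelial cells 51.4 to 55.9 and 36.9 to 86.6 (3 of 7 rose), mast cells 12.8 to 26.3 and 11.1 to 22.0 (2 of 5 rose, 1 fell), eosinophils 11.9 to 18 and 31.6 to 62.3 (3 of 3 rose). T and NK cell markers summed to 33.6 to 37.4 and 51.5 to 70.3 CPM, nearly all of it Cd4, and B cell markers to 5.28 to 7.53 and 9.56 to 13.1 CPM, mostly Cd79b; 1 gene of each list was tested, and it rose. Day 14 replicate 5 is left out of the sums of the 6 lists with a marker beyond the break (monocytes, dendritic cells, neutrophils, eosinophils, T and NK cells, fibroblasts). The part of these cells in the values of the replication genes was not tested.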

How the data were processed

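RNA of sorted wound macrophages (4 libraries of day 4, 5 of day 14) was sequenced as paired ends from a kit that does not mark the strand, per the labels' protocols. CASAVA 1.8, HISAT2 2.1.0, SAMtools 1.4, Partek 6.6, DESeq2 and the build mm10 are named, per the submitters' processing notes; which of them made the counts is not given in the sources used here. The deposited values are estimated counts per gene, of which on average 16.8% in a library were not whole, and they were rounded to whole numbers. A second deposited table of normalised values was not used. Genes beyond the point where day 14 replicate 5 has no counts (1503 genes, none of the 42) were fitted from the 8 other libraries.

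edgeR 4.0.16 (R 4.3.3) was run over all genes with TMM scaling, filterByExpr and the robust quasi-likelihood test, two-sided, and Benjamini-Hochberg adjustment was made over all 13344 genes, with a threshold of 0.05. CPM are on TMM-scaled library sizes without the genes beyond the break. Library totals of 17982633 to 57809918 counts gave the 42 genes 20 to 6390 counts in a library, and their intervals cover the spread between libraries. The fitting script was also tested on simulated data. Alternatives used DESeq2 1.42.0, limma 3.58.1, other scalings and filters, depth classes and leaving out libraries.

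Samples were grouped by the labelled day, with replicate numbers given in accession order. The members and lists were chosen with earlier results of these data known, so no p-value is given over a list. All 42 genes may be named; of each further list, the 3 with the lowest p, the most counted, any direction with 5 or fewer calls, and Mki67 and Top2a; 1 gene this rule names is not reported here. Gene symbols were matched to RefSeq for 17100 genes, by an older name for 1097 and not for 106. Exonic lengths and overlaps come from GENCODE M21. The labels do not name the annotation used for the counts, so the counted exons may differ from these. A planned comparison of protein sequences was not analysed here.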

Additional observations from a re-analysis of the deposited data

Results flagged for a closer look

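In each of 84 groups (42 genes on 2 days), the gap between an extreme library and its neighbour was set against the range of the group. Chance flags about 1 group in 20, and 5 were flagged. Mcm10 stood out in day 14 replicate 1, at 7.18 CPM with the next library at 6.07 (gap over range 0.773). Chaf1b was highest in the same library, at 17.4 CPM with the next at 12.9 (0.718). Prim2 was highest in day 14 replicate 2, at 17.1 CPM with the next at 13.5 (0.833), and so was Ccne1, at 5.98 CPM with the next at 5.0 (0.782). E2f1 was lowest in day 4 replicate 2, at 21.5 CPM with the next at 27.5 (0.929). Without day 14 replicate 1, Mcm10 and Chaf1b still passed the test.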

How the results depend on the processing

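The 14 called genes kept their direction in all 21 alternatives, and Mcm5, Cdt1, Prim1 and Pole passed the test in each. The calls of Mcm3, Mcm4, Mcm7 and Uhrf1 were lost in 3, 4, 2 and 3 alternatives. Those of Mcm10, Lig1 and Chaf1b were lost in 1 each. The alternatives use the same libraries and are no independent check. No paired analysis was possible because the replicate numbers come from accession order and pair no samples. In the 6 shallower libraries, 1029 genes were called higher and 1042 lower of all, and 6 replication genes higher, with a median of 0.20. The other lists there had 0 fork genes lower, 1 nucleotide gene, 5 checkpoint genes, 5 G1/S regulators, 1 chromatin gene and 10 mitosis genes higher, 1 G1/S regulator lower and 0 mitosis genes lower. In the 3 deeper libraries, of which 1 is of day 14, the log2 fold change was -0.51 for Rfc2 and -0.38 for Rpa1. With all 9 libraries it was -0.27 and -0.01. The 1 fit with all 9 libraries took the missing counts of day 14 replicate 5 as 0. In that fit, 6 fork genes were higher, 1 lower and 0 mitosis genes lower. Pola1, which lies beyond the break, was there at log2 0.79 ± 1.05, beside 1.11 ± 0.11 from the 8 other libraries. Fork genes lower numbered 1 and mitosis genes lower 0 with library size as a covariate, no filter, total counts or upper-quartile scaling. The covariate also left 1 G1/S regulator lower and 2 chromatin genes higher. The 5 CPM filter tested 10017 genes, of which 17.2% were higher, and left genes of low level, such as Fanci, untested. It gave 1 fork gene lower and 4 checkpoint genes higher, and the checkpoint genes still tested there were not counted. DESeq2 gave 2 mitosis genes lower. Leaving out 1 library gave 8 (without day 4 replicate 3) to 18 (without day 4 replicate 2) replication genes higher, 1 to 2 fork genes lower, 1 to 4 nucleotide genes higher, 6 to 10 checkpoint genes higher, 1 to 3 G1/S regulators lower, 3 to 6 chromatin genes higher and 0 to 2 mitosis genes lower. Among all calls, 51.8% were higher, and 58% with upper-quartile scaling. With the 150 bases before the start alone, 14.3% of the replication genes held E2F letters and 5.71% CHR letters, and 31.3% of the mitosis genes held CHR letters, beside 1.44% (E2F) and 11.2% (CHR) of all genes. The shallow and deep classes hold fewer samples, the 5 CPM filter tests fewer genes, and the 1 fit with all 9 libraries holds those 0 counts. Otherwise the cause was not tested. Orc1 had the lowest counts of the 42.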
